A study of Mus musculus with 82 samples.

Results

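The EGF family ligands and their ErbB receptors were followed through RNA sequencing of mouse sciatic nerve. The 10 genes examined were taken as a fixed list and matched by symbol, ignoring case: 6 ligands (Btc, Hbegf, Tgfa, Areg, Ereg and Nrg1) and 4 receptors (Egfr, Erbb2, Erbb3 and Erbb4), out of 18003 to 53278 genes per count table. That list was chosen with earlier results of these data known. The series held 82 libraries in 22 groups and 8 tables. Fig4 -/- nerves were set against Fig4 +/+ nerves at postnatal day 12 (P12) and in a separate table at P4, with 3 libraries in each group. Nerves labelled Mitf were set against nerves labelled DhhCre at P21 (5 libraries each) and against nerves labelled Egr2Cre at P12 (3 each). Nerves labelled Mitf taken 3 days post injury were set against uninjured nerves of the same label (4 each). Nerves labelled Mutant were set against wild type nerves 3, 7 and 14 days post injury (3 in each of the 6 groups). Nerves labelled Egr2Cre Mitf were set against nerves labelled Mitf (3 each). The last table held nerves labelled Mitf-Ndrg1 (5), Ndrg1 (5), Mitf (6) and control (6). No age is given in the labels for the last 4 tables, the injury tables included, and the kind of injury is not given either. DhhCre and Egr2Cre are lines in which Schwann cell promoters, of Dhh and of Egr2, drive Cre recombinase. The labels do not say which of the names Mitf, DhhCre, Egr2Cre, Egr2Cre Mitf and Mutant stand for an altered Mitf gene, so each direction is given by label.

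EGF family ligands are made as membrane-bound precursors, and proteases such as Adam10 and Adam17 cut them free. Betacellulin (Btc) and heparin-binding EGF (Hbegf) bind Egfr and Erbb4, whereas transforming growth factor alpha (Tgfa), amphiregulin (Areg) and epiregulin (Ereg) are best known as ligands of Egfr. Neuregulin 1 (Nrg1) binds Erbb3 and Erbb4. Erbb2 binds no ligand by itself and pairs with a ligand-bound partner, while Erbb3 has little kinase activity of its own. In peripheral nerve, Nrg1 on the axon signals to Erbb2 and Erbb3 on Schwann cells and controls their survival and the thickness of myelin, and Schwann cells are known to make Nrg1 themselves after injury. RNA of axons lies mostly in cell bodies outside the nerve, so a nerve library chiefly holds the RNA of Schwann cells, fibroblasts, macrophages, vessels and sheath.

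On build mm10, with the GENCODE vM21 annotation, Areg, Btc and Ereg lie on chromosome 5 in a run of 4 ligand genes with Epgn that spans 375.53 kb. Btc (ENSMUSG00000082361.6) covers 91357261 to 91402994 of chromosome 5 on the minus strand. Tgfa (ENSMUSG00000029999.14) lies on chromosome 6 at 86195223 to 86275719, plus strand. Nrg1 (ENSMUSG00000062991.7) lies on chromosome 8 at 31814551 to 32884029, minus strand, and its annotation holds 12 coding transcripts that a gene-level count does not tell apart. Among the receptors, Egfr (ENSMUSG00000020122.16) lies on chromosome 11 at 16752203 to 16918158, plus strand, and Erbb2 (ENSMUSG00000062312.5) on the same chromosome at 98412470 to 98437716, plus strand. Erbb3 (ENSMUSG00000018166.8) lies on chromosome 10 at 128567523 to 128589652, minus strand, and Erbb4 (ENSMUSG00000062209.15) on chromosome 1 at 68032186 to 69108059, minus strand.

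The promoters of the 3 members whose levels moved most between groups and that a RefSeq table on GRCm38.p6 (mm10) held are printed from 250 bases before to 50 bases after the annotated start, because Btc moved against Tgfa and Erbb4 in several comparisons below. In the time course, however, all 3 were lower at day 14 than at day 3 under both labels. In capitals is the match to CATGTG, read on both strands and so also as CACATG, one of the E-box forms that MiT/TFE factors such as Mitf bind. CACGTG (both strands) and the AP-1 motif TGANTCA (both strands) were searched as well and had no match in these windows.
Btc, chr5:91402945-91403244, minus strand: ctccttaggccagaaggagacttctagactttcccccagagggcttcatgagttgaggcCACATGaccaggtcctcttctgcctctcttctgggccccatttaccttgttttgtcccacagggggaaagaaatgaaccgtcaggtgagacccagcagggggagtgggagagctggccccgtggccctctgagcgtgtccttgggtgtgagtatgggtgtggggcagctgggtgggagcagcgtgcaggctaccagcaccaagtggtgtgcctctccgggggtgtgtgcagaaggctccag
Tgfa, chr6:86194972-86195271, plus strand: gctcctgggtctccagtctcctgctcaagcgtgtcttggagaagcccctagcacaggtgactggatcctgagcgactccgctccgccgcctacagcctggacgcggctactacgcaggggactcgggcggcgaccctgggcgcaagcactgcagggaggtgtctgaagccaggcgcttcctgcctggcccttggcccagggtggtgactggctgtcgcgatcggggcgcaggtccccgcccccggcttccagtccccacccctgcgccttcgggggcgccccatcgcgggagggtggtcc
Erbb4, chr1:69108010-69108309, minus strand: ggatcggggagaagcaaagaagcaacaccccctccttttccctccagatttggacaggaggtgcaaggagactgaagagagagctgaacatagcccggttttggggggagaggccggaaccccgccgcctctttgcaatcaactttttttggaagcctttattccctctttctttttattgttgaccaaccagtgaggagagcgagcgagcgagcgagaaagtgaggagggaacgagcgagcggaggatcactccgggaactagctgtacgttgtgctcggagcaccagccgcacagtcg
The match in Btc starts at position -191 from the start of the gene. Of 32851 mouse promoters of the same length, 14.2% held CATGTG, 7.15% held CACGTG and 7.81% held the AP-1 motif, so a single CATGTG is common, and a match describes letters and not a bound site. The promoter entries of Areg, Egfr and Erbb2 held none of the 3 motifs.

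Depth ranged between 15440000 and 34530000 estimated counts in a library. Levels are given as CPM, counts scaled to library size within each table, so levels from different tables were normalised separately. Fig4 stood at 3.03 to 5.86 CPM in Fig4 -/- nerves against 18.2 to 26.2 CPM in Fig4 +/+ nerves at P12. The labels with Ndrg1 in them do not say how the gene was altered, and Ndrg1 stood at 160 to 191 CPM in nerves labelled Mitf-Ndrg1 or Ndrg1 against 1440 to 2051 CPM in the other groups of that table. Mitf averaged 19.6 ± 1.7 CPM under the Mitf label of the P21 table and 5.73 ± 1.1 CPM under the DhhCre label (SD, n = 5 each). Loss of a few exons would be hidden in such gene-level counts. The Schwann cell markers Sox10 and S100b were detected in every group. The 5 epithelial and keratinocyte markers summed to 0.556 to 395 CPM over all libraries, while 1 of them, keratin 14 (Krt14), did not exceed 0.469 CPM in any group outside the P4 table. Markers of skeletal muscle, a tissue next to the nerve, varied widely: their summed level exceeded 10000 CPM in 2 of 6 libraries at P4, 1 of 6 in the Egr2Cre table, 5 of 18 in the time course, all 6 in the Egr2Cre Mitf table and 2 of 22 in the table with Ndrg1. Nothing in the labels ties each sample to its own animal. The p-values therefore measure only how far these samples spread, and that spread may be technical.

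A count filter let a member be tested in some tables and not in others. Hbegf, Tgfa, Egfr, Erbb2, Erbb3 and Erbb4 passed in all 8 tables. Btc passed in 7 tables, all but the one with DhhCre, and Nrg1 passed in 7, all but Fig4 at P4. Ereg passed only in the table with Ndrg1. Ereg there, and Btc in the P12 Fig4 table and the injury table, passed only through libraries of a group in which they were high, so the counts of members called in those comparisons support nothing by themselves. Without the filter Btc was called in the P12 Fig4 and injury comparisons too. In the time course, Erbb4 reached the cutoff of the filter in all 3 libraries of both day 3 groups. Beyond these it did so only in 1 Mutant library of day 7, where 3 libraries were needed. The counts of members called against day 3 are limited in the same way. Areg was in 7 of the tables and passed in none of them, with a count above 0 in 16 of 60 libraries and a highest count of 10, so no change in it was testable at this depth. Over the 20 pairwise comparisons, Egfr passed an adjusted p of 0.05 in 1 and Erbb2 in 2, against 11 for Tgfa, which was lower in the first-named group in each of the 11. Btc was higher in 5 and lower in 4 of its 19, Erbb4 lower in 7, Erbb3 lower in 6, Hbegf lower in 5 and Nrg1 higher in 3 and lower in 4. Many of these comparisons share libraries, so the tallies do not count separate results. The share of all genes called ran from 0% to 60.5% between comparisons.

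**Figure D1:**
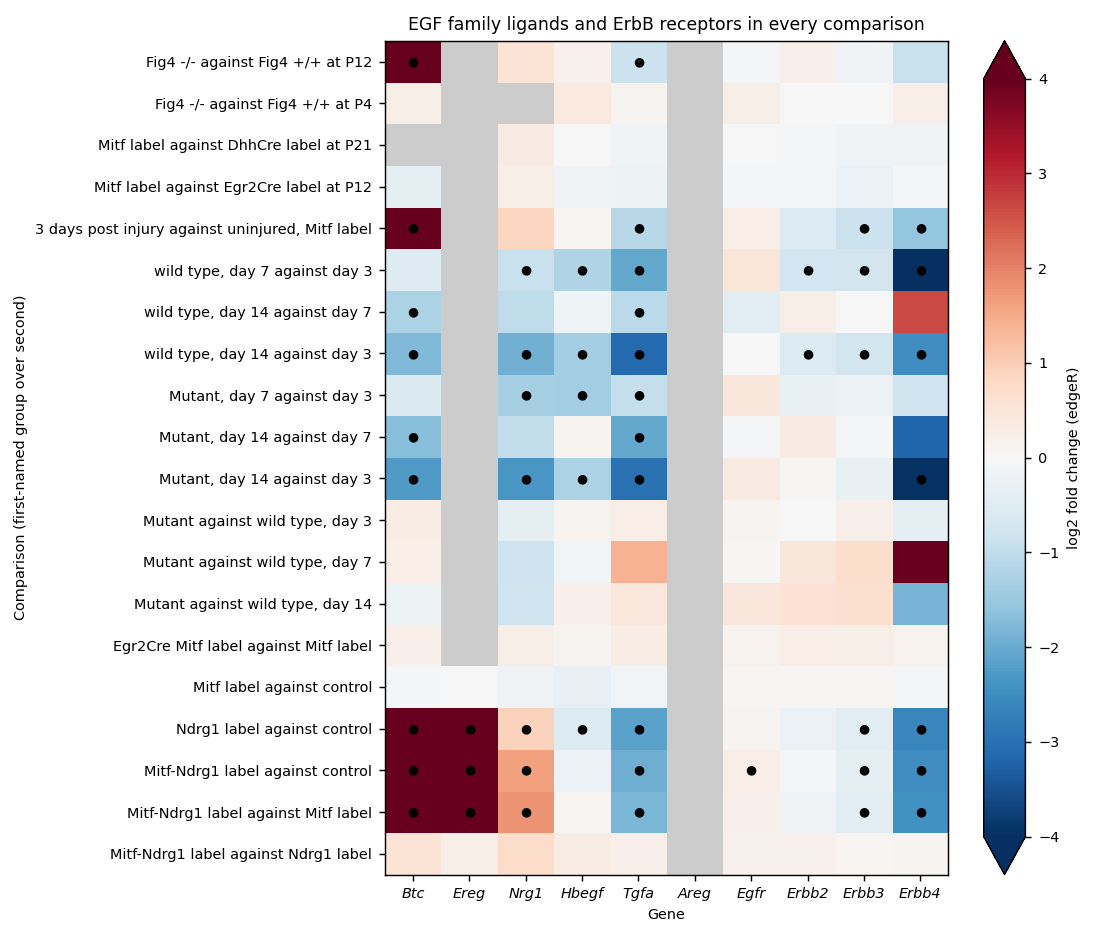
Each cell gives the log2 fold change of a gene (columns) in a comparison (rows), the first-named group over the second, red for higher and blue for lower, with colours saturating at 4 in either direction. A black dot marks an edgeR adjusted p under 0.05, and grey marks a gene not tested. Btc is red where Tgfa and Erbb4 are blue in the rows of Fig4 at P12, of injury and of the Ndrg1 label against control, and the saturated cells of Ereg and Erbb4 rest on groups at or near 0 counts. Those of Btc rest on second-named groups with low counts, among them an uninjured library at 0.

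Fig4 is a phosphoinositide phosphatase needed for late endosomes and lysosomes, and its loss harms neurons. At P12, Btc was the member that differed most between Fig4 -/- and Fig4 +/+ nerves. It stood at 18.2, 17.8 and 16.3 CPM in the 3 Fig4 -/- libraries, against 1.03, 0.0956 and 0.588 CPM in the 3 Fig4 +/+ libraries. Every Fig4 -/- library lay above every Fig4 +/+ library, and on a log2 scale, used for all differences here, Btc rose by 4.91 (SE 0.52, edgeR adjusted p = 0.00053). Tgfa ran the other way. It stood at 40.5, 43 and 45.1 CPM in Fig4 -/- nerves, against 86.1, 77.5 and 69.9 CPM in Fig4 +/+ nerves, without overlap, and fell by 0.86 (SE 0.14, edgeR adjusted p = 0.0069). These were 2 of the 8 members tested, against a background of 3.03% of 14338 genes called in this comparison. The members were chosen with earlier results known, and Btc passed the count filter only through Fig4 -/- libraries. This count therefore supports nothing by itself.

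Of the receptors, Erbb4 came nearest to the threshold. Erbb4 stood at 15.4, 12.8 and 15.6 CPM in Fig4 -/- nerves at P12, against 29.3, 32.7 and 19.1 CPM in Fig4 +/+ nerves, so the groups did not overlap, and its log2 difference was -0.89 (SE 0.22, edgeR adjusted p = 0.054). It passed the threshold with DESeq2, without the low-count filter and without the Fig4 +/+ library at 19.1 CPM. Erbb3 averaged 242 ± 23 CPM in Fig4 -/- nerves and 266 ± 31 CPM in Fig4 +/+ nerves (SD, n = 3 each), and Erbb2 and Egfr also overlapped between the genotypes. Nrg1 overlapped too, with 3.92 CPM in a single Fig4 -/- library and at most 1.67 CPM in the other 5. Among the 5 genes of ligand release, Adam10, a protease that frees Btc, was lower (log2 difference -0.62, edgeR adjusted p = 0.041), and none of the 10 inhibitors and feedback genes, 13 adaptors and kinases and 6 ERK pathway target genes passed. The summed macrophage markers ran from 682 to 850 CPM in Fig4 -/- nerves, against 348 to 437 CPM in Fig4 +/+ nerves, with 7 of 10 markers called higher, and the Schwann cell markers summed to 89882 to 111282 CPM in Fig4 -/- nerves against 117166 to 167669 CPM in Fig4 +/+ nerves. The part of cell makeup in these differences was not tested. With the summed skeletal muscle markers as a covariate the call of Tgfa was lost at about the same log2 difference, -0.84 (edgeR adjusted p = 0.069), and in bulk nerve fewer cells of a type and less RNA per cell cannot be told apart.

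At P4, none of the 7 members tested passed between the genotypes. Btc averaged 0.866 ± 0.22 CPM in Fig4 -/- nerves and 0.729 ± 0.39 CPM in Fig4 +/+ nerves, and Tgfa averaged 17.6 ± 7.3 and 16.4 ± 7.5 CPM (SD, n = 3 each). A single gene of all tested was called in this comparison, 0.00672%. The muscle-rich library of each genotype held little Erbb3, at 193 CPM in Fig4 -/- nerves and 169 CPM in Fig4 +/+ nerves, against 433 to 532 CPM in the other 4. A fit over both ages compared the genotype difference at P12 with that at P4. For Btc the log2 difference was larger at P12 by 4.69 (SE 0.81, edgeR adjusted p = 0.049), the 1 member called where 0.167% of all genes were. That call was lost with RLE scaling, with a replicate block and without any of 10 of the 12 libraries. Age and table cannot be told apart there.

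**Figure D2:**
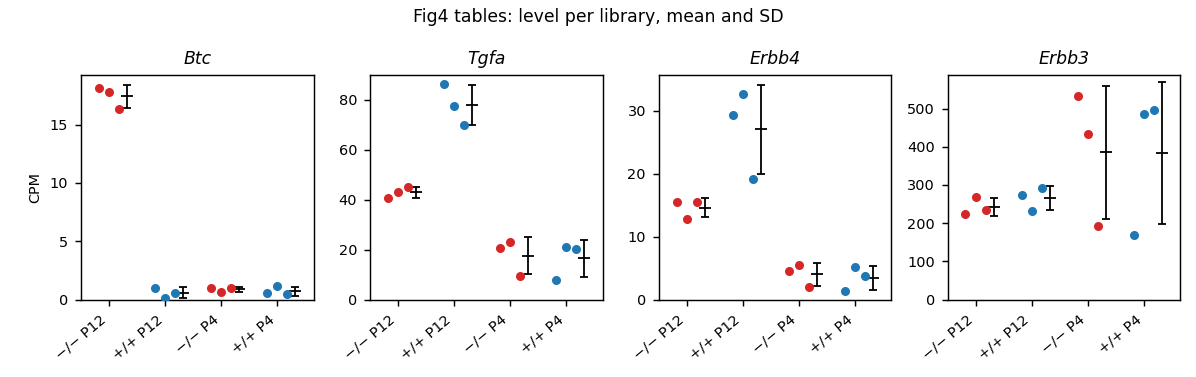
CPM of Btc, Tgfa, Erbb4 and Erbb3 in each library of the Fig4 tables, Fig4 -/- in red and Fig4 +/+ in blue, with the mean and SD beside each group. Btc stands between 16.3 and 18.2 CPM in Fig4 -/- nerves at P12 and at most 1.17 CPM in the other 3 groups, and 1 library of each genotype at P4 is low in Erbb3.

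No member passed between the Mitf and DhhCre labels at P21, where 7 were tested, or between the Mitf and Egr2Cre labels at P12, where 8 were. At P21, Tgfa averaged 152 ± 12 CPM under the Mitf label and 169 ± 12 CPM under the DhhCre label, and Erbb3 averaged 216 ± 17 and 238 ± 8.1 CPM (SD, n = 5 each). These log2 differences, -0.15 (SE 0.07) and -0.14 (SE 0.06), were not called (edgeR adjusted p = 1 each). At P12, Hbegf stood at 42, 41 and 41.1 CPM under the Mitf label, against 47.9, 44.3 and 45.9 CPM under the Egr2Cre label. These do not overlap, but the log2 difference was -0.16 (SE 0.09, edgeR adjusted p = 1). In the whole tables, 0.0143% (P21) and 0.0139% (P12) of genes were called. Btc stayed at or below 0.967 CPM in every library of both tables.

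At 3 days post injury, nerves labelled Mitf held more Btc and less Tgfa, Erbb3 and Erbb4 than uninjured nerves of that label. Btc stood at 14.1, 9.97, 3.27 and 10.6 CPM 3 days post injury, against 0.732, 1.2, 0 and 0.307 CPM in uninjured nerves. The lowest injured library lay above the highest uninjured library, and Btc rose by 4.07 (SE 0.92, edgeR adjusted p = 0.015). Tgfa stood at 56.1, 54.5, 116 and 67.3 CPM 3 days post injury, against 172, 162, 158 and 141 CPM in uninjured nerves. It fell by 1.10 (SE 0.23, edgeR adjusted p = 0.0097), and the injured library at 116 CPM, which also held the least Btc, was nearest to the uninjured ones. Nrg1 and Hbegf overlapped between the groups: Nrg1 averaged 5.98 ± 2.4 CPM 3 days post injury and 3.31 ± 2.1 CPM in uninjured nerves, and Hbegf 90.7 ± 32 and 85.3 ± 10 CPM (SD, n = 4 each).

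Both Nrg1 receptors fell in the injured nerves. Erbb3 stood at 90.9, 123, 150 and 145 CPM 3 days post injury, against 216, 249, 247 and 218 CPM in uninjured nerves, and fell by 0.87 (SE 0.16, edgeR adjusted p = 0.0071). Erbb4 stood at 4.83, 3.7, 5.49 and 6.16 CPM 3 days post injury, against 9.96, 15, 19.6 and 14.9 CPM in uninjured nerves, and fell by 1.56 (SE 0.26, edgeR adjusted p = 0.0046). Neither overlapped between the groups. Erbb2, the partner of Erbb3, averaged 65.5 ± 21 CPM 3 days post injury and 95.1 ± 8 CPM in uninjured nerves (SD, n = 4 each), with a log2 difference of -0.54 (SE 0.20) that did not pass (edgeR adjusted p = 0.078). Without the injured library at 95 CPM, or with a replicate block, Erbb2 passed. So 4 of the 8 members tested were called, beside 22.1% of all genes. One of them, Btc, passed the count filter only through the injured libraries, so this count supports nothing by itself.

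Further along the pathway, 3 of the 6 ERK pathway target genes rose in the injured nerves: Fosl1, an AP-1 factor, by 7.37, Egr1, an immediate early factor, by 1.02, and Dusp6, the phosphatase that dampens ERK, by 0.58 (edgeR adjusted p = 0.0029, 0.009 and 0.027). Of the 5 genes of ligand release, Adam10 fell by 1.16, Bace1, which cuts Nrg1, by 0.66 and Adam17 by 0.45 (edgeR adjusted p = 0.0071, 0.011 and 0.022). Among 13 adaptors and kinases, Gab2 rose by 1.55 while Gab1 and 4 others fell, Gab1 by 0.97 (edgeR adjusted p = 0.0088 for Gab2 and 0.0042 for Gab1), and among 10 inhibitors and feedback genes Errfi1, which inhibits Egfr, fell by 0.61 (edgeR adjusted p = 0.031). The median log2 difference was 0.74 over the target genes and -0.45 over the release genes, against 0.03 over all genes tested. Schwann cell markers summed to 36963 to 91688 CPM in the injured nerves, against 102591 to 127974 CPM in uninjured nerves, with Sox10 lower by 0.79 and S100b by 0.74, and macrophage markers to 855 to 2364 CPM in injured against 453 to 1116 CPM in uninjured nerves. Their part in the member differences was not tested. Skeletal muscle markers summed to 5.92 to 31.3 CPM in injured and 27.2 to 2403 CPM in uninjured nerves, and with that sum as a covariate 1 of the 4 member calls remained, that of Erbb4. The log2 differences of the lost calls were then 3.60 for Btc, -1.07 for Tgfa and -0.96 for Erbb3 (edgeR adjusted p = 0.19, 0.087 and 0.056).

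**Figure D3:**
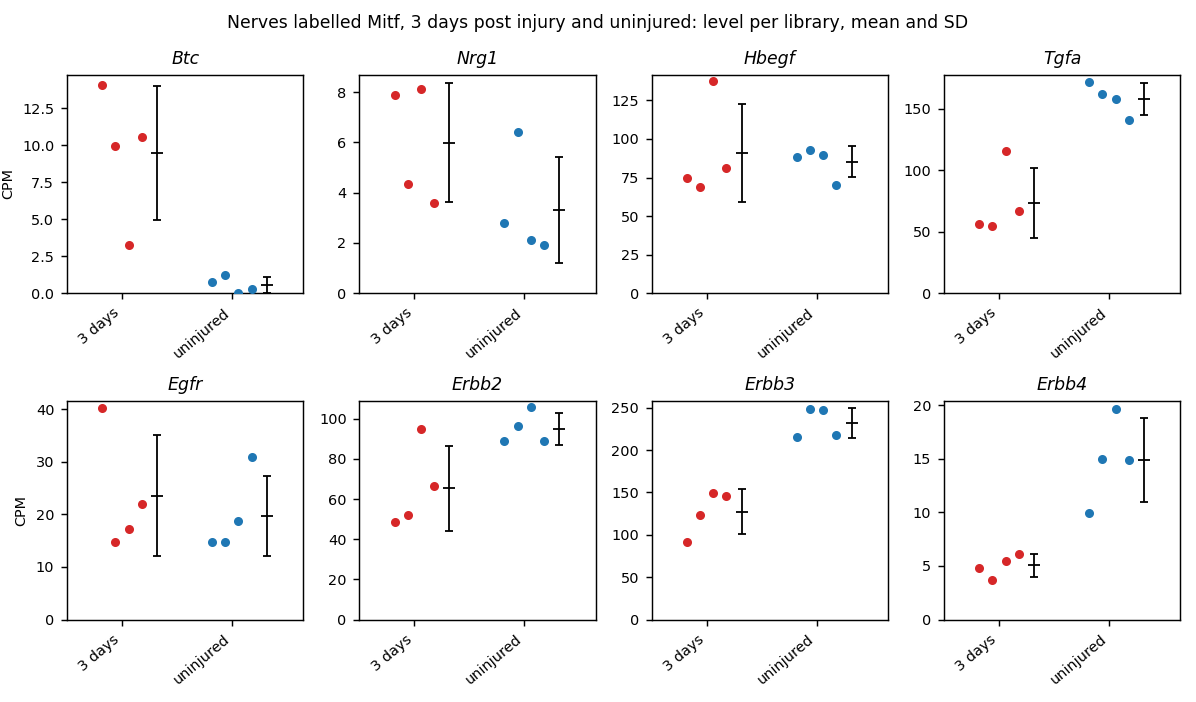
CPM of 8 members in each library of the injury table, 3 days post injury in red and uninjured in blue, with the mean and SD beside each group. Btc, Tgfa, Erbb3 and Erbb4 do not overlap between the groups, and Nrg1, Hbegf, Egfr and Erbb2 do.

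In the time course, the tested ligands were highest at day 3 and lower at day 14 under both labels. Btc averaged 107 ± 11, 71.6 ± 27 and 22 ± 6.3 CPM at days 3, 7 and 14 in Mutant nerves, and 86.4 ± 10, 60.1 ± 21 and 25.2 ± 9.6 CPM in wild type nerves (SD, n = 3 each). At day 3 its libraries stood at 94.3, 115 and 112 CPM in Mutant nerves, against 75.4, 95.2 and 88.5 CPM in wild type nerves, so the labels overlapped. From day 3 to day 14 Btc fell by 2.28 in Mutant nerves (SE 0.34, edgeR adjusted p = 8.3e-05) and by 1.78 in wild type nerves (SE 0.33, edgeR adjusted p = 0.00041). From day 3 to day 7 it did not pass in either.

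Tgfa fell furthest of the ligands. It averaged 20.9 ± 1.5, 10.9 ± 3.3 and 2.62 ± 0.88 CPM at days 3, 7 and 14 in Mutant nerves, and 17.3 ± 1.9, 4.19 ± 1.5 and 1.99 ± 0.3 CPM in wild type nerves (SD, n = 3 each). All 3 pairs of days passed the test in each label, and between days 3 and 14 Tgfa fell by 2.98 in Mutant nerves (SE 0.29, edgeR adjusted p = 1.7e-06) and by 3.11 in wild type nerves (SE 0.29, edgeR adjusted p = 1.3e-06). Hbegf averaged 64.7 ± 17, 24.8 ± 11 and 26.8 ± 5.4 CPM in Mutant nerves, and 60.6 ± 5.2, 26.5 ± 8 and 23.4 ± 5.9 CPM in wild type nerves (SD, n = 3 each). It was lower at day 7 than at day 3, by 1.38 in Mutant and 1.19 in wild type nerves (edgeR adjusted p = 0.0026 and 0.0056), and no call was made between days 7 and 14. With the muscle markers as a covariate the Mutant difference of Hbegf was -0.87 and its call was lost (edgeR adjusted p = 0.11), as were those of Tgfa at -0.99 and Nrg1 at -1.05 between these days in Mutant nerves (edgeR adjusted p = 0.071 and 0.15). Nrg1 was low throughout, at 1.81 ± 0.62, 0.712 ± 0.093 and 0.366 ± 0.21 CPM in Mutant nerves and 2.35 ± 0.14, 1.25 ± 0.28 and 0.617 ± 0.15 CPM in wild type nerves (SD, n = 3 each). It fell by 2.33 and 1.92 between days 3 and 14 (edgeR adjusted p = 0.00022 and 0.00048).

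Among the receptors, Erbb3 and Erbb2 were lower at days 7 and 14 than at day 3 in wild type nerves, where Erbb3 averaged 62 ± 6.4, 37.6 ± 11 and 37.6 ± 7.9 CPM and Erbb2 averaged 41.3 ± 4, 24.3 ± 3.6 and 28.5 ± 4.8 CPM (SD, n = 3 each). By day 7, Erbb3 fell by 0.72 (SE 0.26, edgeR adjusted p = 0.039) and Erbb2 by 0.76 (SE 0.20, edgeR adjusted p = 0.0066). The call of Erbb3 was lost without any 1 of 5 of these 6 libraries. With the muscle covariate both calls were lost, at a log2 difference of -0.49 for each (edgeR adjusted p = 0.23 for Erbb3 and 0.070 for Erbb2). By day 14, Erbb3 was lower than at day 3 by 0.72 and Erbb2 by 0.54 (edgeR adjusted p = 0.028 and 0.030). For either receptor this call was lost in 6 of 13 settings, the muscle covariate among them. In Mutant nerves neither was called between any days, and Erbb3 averaged 72.1 ± 12, 61.7 ± 7.3 and 58.4 ± 24 CPM (SD, n = 3 each). Whether time acted differently under the labels was tested directly and no member passed (edgeR adjusted p = 0.72 for Erbb3 and 0.51 for Erbb2). Egfr was the member without a call between days. It was higher at day 7 than at day 3, by 0.50 in wild type and 0.45 in Mutant nerves (edgeR adjusted p = 0.096 and 0.14). Both differences of Egfr were called without the muscle-rich libraries. That in wild type nerves was also called with the muscle covariate and without wild type library 1 of day 7. That in Mutant nerves was also called with the compared groups fitted alone. Erbb4 lay near the floor, at 0.593 to 0.768 CPM in Mutant and 0.636 to 1.22 CPM in wild type nerves at day 3. At day 7, 2 of the 3 wild type libraries held no Erbb4 count and the third held 1, so the summed level at day 3 was 47.6 times that at day 7, with a 95% exact counting interval of 8.24 to 1911, which covers counting error only. Ereg, not tested in this table, stood at 0.143 to 0.283 CPM in Mutant and 0.325 to 0.454 CPM in wild type nerves at day 3, and at 0 in every wild type library at day 14.

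In Mutant nerves, day 7 against day 3 gave 3 members called, day 14 against day 7 gave 2 and day 14 against day 3 gave 5, out of 8 tested. The backgrounds were 33.4%, 17.7% and 46.5% of all genes. In wild type nerves the counts were 6, 2 and 7 of 8, with backgrounds of 39.1%, 7.41% and 57.1%. Erbb4, which passed the count filter only through day 3 libraries, is in both wild type counts against day 3. It is also in the Mutant count of day 14 against day 3, so these counts support nothing by themselves. Comparisons of days within a label share libraries. Both wild type calls between days 14 and 7, Btc and Tgfa, were lost with the muscle covariate, without the muscle-rich libraries and with those groups fitted alone. That of Btc was also lost without any 1 of 4 of these 6 libraries and that of Tgfa without any 1 of 5, and in Mutant nerves the calls of both between days 14 and 7 were lost with those groups fitted alone. Of the 6 ERK pathway target genes, Fosl1 fell by 5.87 in Mutant and by 5.74 in wild type nerves between days 3 and 14 (edgeR adjusted p = 5.6e-08 and 7.0e-08), and Dusp4, another ERK phosphatase, by 1.75 and 1.72 (edgeR adjusted p = 8.6e-05 and 8.2e-05). Skeletal muscle markers summed to 6232 to 148726 CPM at day 14, against 5.64 to 2031 CPM at day 3, over both labels, and their part in the falls was not tested. Without the 5 muscle-rich libraries, 3 members were called between days 14 and 3 in wild type nerves, namely Btc, Tgfa and Nrg1, in place of 7. Leaving those out keeps 1 library of each label at day 14, which is assumed to vary like the other groups. With the muscle markers as a covariate, 2 members were called in Mutant nerves between those days, Btc and Tgfa, in place of 5. Sox10 ran from 21.5 to 102 CPM at day 14, against 175 to 250 CPM at day 3. S100b averaged 100, 119 and 39.5 CPM at days 3, 7 and 14 in wild type nerves. In Mutant nerves it averaged 107, 191 and 35.5 CPM. Over both labels, Schwann cell markers summed to 1486 to 2524 CPM at day 14, against 3056 to 3796 CPM at day 3. Macrophage markers summed to 2250 to 3240 CPM at day 14, against 3156 to 6646 CPM at day 3. The part of cell makeup in the falls was not tested.

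**Figure D4:**
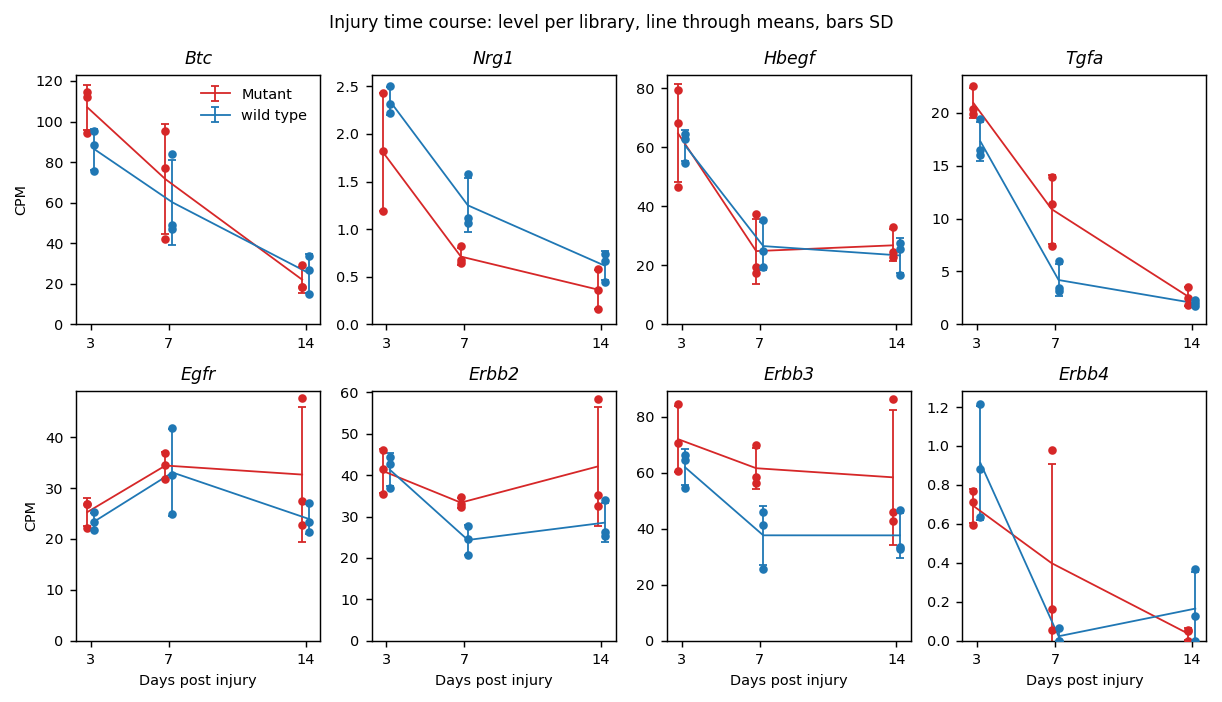
CPM of the members against days post injury, Mutant in red and wild type in blue, a point per library with the mean and SD of each group. Btc, Tgfa, Hbegf and Nrg1 are lower at day 14 than at day 3 under both labels, and at day 7 the libraries of the labels do not overlap in Tgfa.

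Between Mutant and wild type nerves at a given day no member passed. At day 7 Tgfa came nearest to the threshold. It stood at 13.9, 11.3 and 7.43 CPM in Mutant nerves, against 3.15, 3.45 and 5.96 CPM in wild type nerves, with no overlap and a log2 difference of 1.38 (SE 0.27, edgeR adjusted p = 0.13). DESeq2 called it, as did edgeR without the muscle-rich wild type library at 5.96 CPM. Erbb4 at day 7 held 0.981, 0.0522 and 0.16 CPM in Mutant nerves, against 0, 0 and 0.0663 CPM in wild type nerves, and rested on the first Mutant library. That library also held the most Tgfa and a Schwann cell marker sum of 12833 CPM, against 1255 and 1574 CPM in the other Mutant libraries of day 7. Nrg1 at day 7 stood at 0.641 to 0.818 CPM in Mutant nerves and 1.06 to 1.58 CPM in wild type nerves, without overlap, but did not pass (log2 difference -0.81, SE 0.36, edgeR adjusted p = 0.36). Erbb3 at day 7 did not pass (log2 difference 0.71, edgeR adjusted p = 0.30), but was called without the muscle-rich libraries, at 0.89.

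At day 14, Erbb2 averaged 42.1 ± 14 CPM in Mutant nerves and 28.5 ± 4.8 CPM in wild type nerves (SD, n = 3 each), with a log2 difference of 0.56 (SE 0.20, edgeR adjusted p = 0.084) that passed with DESeq2. It also passed without the muscle-rich libraries, where 1 Mutant library is set against 1 wild type library and the spread comes from the other groups. Egfr and Erbb3 did not pass either, at 0.45 and 0.63 (edgeR adjusted p = 0.21 and 0.13). Without the muscle-rich Mutant library 2 of day 14, Erbb2, Egfr and Erbb3 were called. Egfr then differed by 0.65 and Erbb3 by 0.81 (edgeR adjusted p = 0.037 and 0.034). In the whole table, 0% of genes were called at day 3, 0% at day 7 and 8.29% at day 14, and 0.082% in the test of label by time. At day 3, 299 genes had an unadjusted edgeR p under 0.05 and DESeq2 called 0, and at day 7 these counts were 2094 and 241. At day 14, Rhbdf1 and Rhbdf2, inactive rhomboids that help Adam17 mature, were higher in Mutant nerves by 1.06 and 0.69 (edgeR adjusted p = 0.039 and 0.045), 2 of the 5 release genes. Of 10 inhibitors and feedback genes, Lrig3 rose by 1.33 and Cbl by 0.80 while Errfi1 fell by 0.68 (edgeR adjusted p = 0.041, 0.044 and 0.019). With the day 14 groups fitted alone 0 genes were called, so these 5 calls were lost. These 3 comparisons share libraries with those of days above.

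Between nerves labelled Egr2Cre Mitf and nerves labelled Mitf none of the 8 members tested passed, beside 0% of all genes. At an unadjusted edgeR p under 0.05 there were 671 genes, and DESeq2 called 7. Btc stood at 7.75, 10.8 and 8.41 CPM under the Egr2Cre Mitf label, against 7.52, 8.9 and 6.77 CPM under the Mitf label. The groups overlapped, and the log2 difference was 0.22 (SE 0.18, edgeR adjusted p = 0.85). Set beside the injury table, which was normalised separately, those levels lie above the 1.2 CPM that Btc did not exceed in uninjured nerves labelled Mitf, and Erbb4 lay at 1.1 ± 0.82 CPM under the Egr2Cre Mitf label and 0.971 ± 0.68 CPM under the Mitf label (SD, n = 3 each), against 14.9 ± 3.9 CPM in those uninjured nerves (SD, n = 4). The labels of this table state neither an age nor an injury, and all 6 libraries were muscle-rich.

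In the table with Ndrg1, the nerves labelled Ndrg1 or Mitf-Ndrg1 held more Btc, Ereg and Nrg1 and less Tgfa, Erbb3 and Erbb4 than control nerves. Ndrg1 is a Schwann cell gene mutated in an inherited demyelinating neuropathy. Btc stood at 20.9, 28.8, 31.7, 28.6 and 23.4 CPM under the Mitf-Ndrg1 label and at 17.9, 17.2, 25.3, 20.3 and 10.4 CPM under the Ndrg1 label. Under the Mitf label it ran from 0.35 to 1.01 CPM with a median of 0.627 CPM, and in control nerves from 0.441 to 1.04 CPM with a median of 0.658 CPM. Every library with Ndrg1 in its label lay above every other library. Btc rose by 5.27 under Mitf-Ndrg1 (SE 0.24, edgeR adjusted p = 1.5e-14) and by 4.72 under Ndrg1 (SE 0.24, edgeR adjusted p = 7.5e-14), both against control.

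Ereg, of the same chromosome 5 run of ligand genes as Btc, was at 0.405, 0.638, 0.89, 0.816 and 0.609 CPM under the Mitf-Ndrg1 label and at 0.325, 0.249, 0.655, 0.774 and 0.835 CPM under the Ndrg1 label. It had no count in any of the 6 Mitf or 6 control libraries. Set against a floor of 3 counts over the control group, Ereg was at least 31.0-fold higher under Mitf-Ndrg1 and at least 26.2-fold higher under Ndrg1. It stayed below 1 CPM throughout. Nrg1 stood at 4.57, 4.36, 8.62, 7.3 and 8.64 CPM under the Mitf-Ndrg1 label and at 5.94, 3.57, 4.19, 2.58 and 3.83 CPM under the Ndrg1 label. Under the Mitf label it ran from 1.48 to 2.64 CPM (median 1.75) and in control nerves from 1.65 to 2.82 CPM (median 2.12). Nrg1 rose by 1.65 under Mitf-Ndrg1 (SE 0.22, edgeR adjusted p = 8.1e-07) and by 0.92 under Ndrg1 (SE 0.22, edgeR adjusted p = 0.0011), and the lowest Ndrg1 library overlapped the control range.

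Tgfa, in contrast, was lower. It stood at 26, 31.9, 47.2, 39.3 and 62.5 CPM under the Mitf-Ndrg1 label and at 36.8, 32.7, 37.2, 38.4 and 33.4 CPM under the Ndrg1 label, against 125 to 178 CPM in control nerves (median 169). The Mitf label ran from 104 to 176 CPM. Tgfa fell by 1.94 under Mitf-Ndrg1 (SE 0.18, edgeR adjusted p = 4.3e-09) and by 2.16 under Ndrg1 (SE 0.18, edgeR adjusted p = 8.4e-10), without overlap. Hbegf stood at 58.4 to 62.3 CPM under the Ndrg1 label, below all control libraries at 78.4 to 98.9 CPM, and fell by 0.53 (SE 0.12, edgeR adjusted p = 0.00043). Under Mitf-Ndrg1 it spread from 58.2 to 96.4 CPM and did not pass against control (log2 difference -0.23, SE 0.12, edgeR adjusted p = 0.097).

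Of the receptors, Erbb4 moved most. It stood at 4.58, 5.79, 8.32, 6.57 and 9.89 CPM under the Mitf-Ndrg1 label and at 8.36, 5.32, 5.83, 8.4 and 4.62 CPM under the Ndrg1 label, against 33.6 to 51.7 CPM in control nerves (median 36.7). Neither overlapped control, and Erbb4 fell by 2.49 under Mitf-Ndrg1 (SE 0.20, edgeR adjusted p = 4.1e-10) and by 2.60 under Ndrg1 (SE 0.20, edgeR adjusted p = 2.1e-10). Erbb3 fell by less, by 0.37 under Mitf-Ndrg1 (SE 0.13, edgeR adjusted p = 0.022) and by 0.44 under Ndrg1 (SE 0.13, edgeR adjusted p = 0.007). It averaged 182 ± 43 CPM under Mitf-Ndrg1 and 173 ± 15 CPM under Ndrg1 (SD, n = 5 each), against 235 ± 31 CPM in control nerves (SD, n = 6). The call of Erbb3 under Mitf-Ndrg1 was lost without control library 6 or Mitf-Ndrg1 library 1 or 2. Egfr was higher under Mitf-Ndrg1 by 0.27 (SE 0.11, edgeR adjusted p = 0.038), a call lost with a replicate block, without the muscle-rich libraries and without any 1 of 7 libraries. Erbb2 was not called in this table.

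Counts of members called were 7 of 9 for Mitf-Ndrg1 against control and 7 of 9 for Ndrg1 against control, where 59.1% and 60.5% of all genes were called. Mitf-Ndrg1 against Mitf gave 6 of 9, with Btc higher by 5.36 and Tgfa lower by 1.84 (edgeR adjusted p = 1.1e-14 and 9.7e-09), beside 57.6% of all genes. Each of these counts includes Ereg. These comparisons share control or Mitf-Ndrg1 libraries. The median log2 difference over the members was -0.08 for Mitf-Ndrg1 and -0.25 for Ndrg1 against control, and over all genes 0.03 and 0.02. All 10 macrophage markers were higher and all 8 Schwann cell markers lower in both comparisons. Macrophage markers summed to 3261 to 4560 CPM under Mitf-Ndrg1 and 3157 to 4185 CPM under Ndrg1, against 424 to 558 CPM in control nerves. Schwann cell markers summed to 40776 to 68243 CPM under Mitf-Ndrg1 and 46125 to 59322 CPM under Ndrg1, against 153516 to 182839 CPM in control nerves. Their part in the member differences was not tested.

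**Figure D5:**
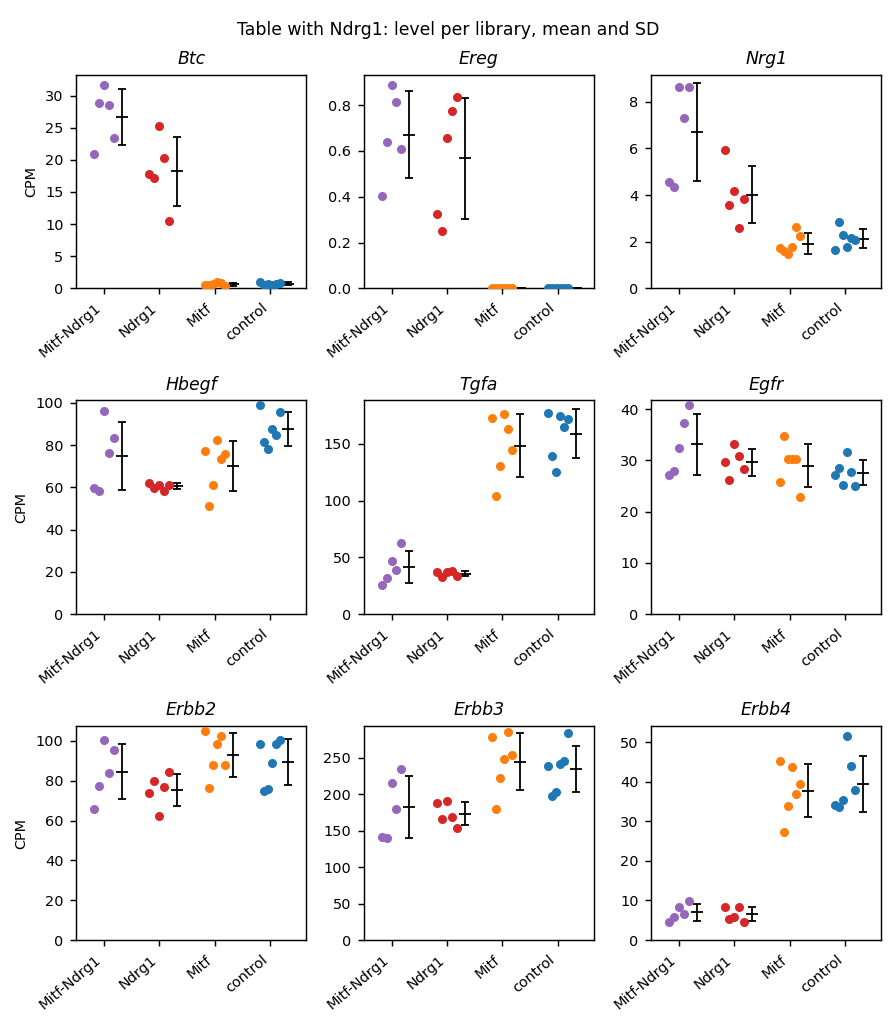
CPM of the members in each library of the table with Ndrg1, in the order Mitf-Ndrg1, Ndrg1, Mitf and control, with the mean and SD beside each group. Btc is high and Tgfa and Erbb4 are low in the 10 libraries with Ndrg1 in their label, and the Mitf and control libraries share their range.

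Adding the Mitf label changed no member past the threshold, with or without the Ndrg1 label. Between Mitf-Ndrg1 and Ndrg1, Nrg1 differed by 0.74 (SE 0.23, edgeR adjusted p = 0.095) and Btc by 0.55 (SE 0.20, edgeR adjusted p = 0.16), where 1.47% of all genes were called. Nrg1 passed without Ndrg1 library 1, without Mitf-Ndrg1 library 1 and with the muscle covariate. Between Mitf and control, Hbegf averaged 70.2 ± 12 CPM under the Mitf label and 87.8 ± 8 CPM in control nerves (SD, n = 6 each), a log2 difference of -0.32 (SE 0.11, edgeR adjusted p = 0.67), beside 0.00629% of genes called. The test of whether the Mitf label acted differently with Ndrg1 in the label called no member and 0.39% of all genes. Hbegf was closest, at 0.63 (SE 0.17, edgeR adjusted p = 0.08), and passed with DESeq2, with the muscle covariate and without Mitf-Ndrg1 library 1.

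Of the 6 ERK pathway target genes, 4 rose under Mitf-Ndrg1 and 5 under Ndrg1 against control, with 0 lower. These and the counts below stand beside 59.1% and 60.5% of all genes called in either direction, so that 4 of 6, or 8 of 13, lies near that background. Dusp6 rose by 1.11 under Mitf-Ndrg1 and 1.24 under Ndrg1 (edgeR adjusted p = 3.5e-12 and 4.2e-13), and Fosl1 by 5.79 and 5.75 (edgeR adjusted p = 3.1e-09 and 3.0e-09). Their median log2 difference was 1.09 under Mitf-Ndrg1 and 1.33 under Ndrg1. Adam10 fell by 1.49 under both labels (edgeR adjusted p = 1.0e-09 and 8.7e-10), and Bace1 fell by 0.71 under Mitf-Ndrg1 and by 1.13 under Ndrg1 (edgeR adjusted p = 1.0e-05 and 1.1e-08), 2 of the 5 release genes. Of the 10 inhibitors and feedback genes, 3 rose and 5 fell under Mitf-Ndrg1 and 3 rose and 6 fell under Ndrg1, among them Spred1, which rose by 0.57 and 0.77 (edgeR adjusted p = 1.7e-06 and 1.3e-08), and Lrig1, which promotes loss of ErbB receptors and fell by 0.56 and 0.79 (edgeR adjusted p = 2.8e-05 and 2.1e-07). Among 13 adaptors and kinases, 4 rose and 8 fell under Mitf-Ndrg1 and 3 rose and 5 fell under Ndrg1. Gab2 rose by 0.88 and 1.08 (edgeR adjusted p = 1.1e-09 and 2.7e-11), and Mapk3, the ERK1 kinase, fell by 1.05 and 0.99 (edgeR adjusted p = 1.4e-09 and 3.0e-09).

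Across all 22 groups, the levels of Btc covered a wide range, with the reservation that the tables were normalised separately. The highest means were those of day 3, 107 CPM in Mutant and 86.4 CPM in wild type nerves, followed by 71.6 and 60.1 CPM at day 7, and neighbours in this order overlapped. Next came 26.7 CPM under Mitf-Ndrg1, 25.2 CPM in wild type and 22 CPM in Mutant nerves at day 14, 18.2 CPM under Ndrg1 and 17.4 CPM in Fig4 -/- nerves at P12, and neighbours overlapped here too. Injured nerves labelled Mitf (9.47 CPM) and both groups of the Egr2Cre Mitf table (8.98 and 7.73 CPM) came next, below Fig4 -/- nerves without overlap, although the lowest Ndrg1 library at 10.4 CPM lay within their range. The remaining 10 groups averaged 0.342 to 0.866 CPM. Tgfa ran in another order, with its means highest under the DhhCre label (169 CPM), in control (159 CPM) and in uninjured nerves labelled Mitf (158 CPM), and lowest in wild type nerves at day 14 (1.99 CPM). Erbb3 was highest at P4, at 386 ± 174 CPM in Fig4 -/- and 383 ± 186 CPM in Fig4 +/+ nerves (SD, n = 3 each), and lowest at 37.6 CPM in wild type nerves at days 7 and 14.

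Levels of different genes were compared per kilobase of the median annotated coding transcript. Erbb3 ranked first in 9 of 22 groups, Tgfa in 5, and Btc and Hbegf in 4 each. At 3 days post injury the levels of nerves labelled Mitf were 38.2 CPM per kb for Hbegf, 29.7 for Tgfa and 21.2 for Erbb3, against 35.9, 64.0 and 38.6 CPM per kb in uninjured nerves. In Mutant nerves at day 3 Btc led with 37.2 CPM per kb. With the longest transcript in place of the median, Erbb3 ranked first in 14 groups and Tgfa in none.

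Over the 22 group means, 11358 genes were compared with Btc, Nrg1 and Erbb3 by Pearson's r on log2(CPM + 2), each group mean taken relative to the mean of its table. The genes most like Btc were Ninj1 (0.973), Bin3 (0.967), Abca1 (0.967), Ctsd (0.965) and Plin2 (0.962). Those most like Nrg1 were Trpv2 (0.938), Ptafr (0.936), Pim1 (0.932), Snx20 (0.931) and Cdk20 (0.930), and those most like Erbb3 were Nr4a2 (0.960), Itgb4 (0.945), Tmod2 (0.933), Lrrc8b (0.928) and Adgrg6 (0.927). Among the members, r was 0.864 between Btc and Nrg1, 0.875 between Erbb2 and Erbb3 and -0.766 between Btc and Erbb4. Between Btc and Tgfa it was -0.262. The values of a group come from the same libraries and share their depth and cell makeup, so these coefficients describe the groups.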

How the data were processed

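RNA-seq libraries of mouse sciatic nerve, made from poly(A) RNA with a stranded kit per the labels' protocols, were quantified by the authors as estimated counts per gene, with kallisto and mm10 per the submitters' processing notes. Tool versions, the annotation and how transcripts were summed to genes: not given in the sources used here. The deposited estimated counts held 34.8 to 89.0% whole values per table and were rounded. Total depth was 15440000 to 34530000 per library, and no column was left unused (0). Each table was fitted alone with edgeR 4.0.16 in R 4.3.3 (filterByExpr with a minimum count of 10, TMM scaling, robust quasi-likelihood test, Benjamini-Hochberg adjustment over all 13943 to 15910 genes tested, calls under 0.05). The Fig4 tables were also fitted jointly. CPM use TMM-scaled library sizes.

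The members and the lists of pathway and marker genes were chosen with earlier results of these data known. The named genes are all members and up to 3 called genes per pathway list with the smallest p. Positions come from GENCODE vM21 and promoters from RefSeq, and those of Hbegf, Nrg1, Ereg and Erbb3 are not used here. The settings varied were the scaling (RLE), the tool (DESeq2 1.42.0), the low-count filter (none), a replicate block, a skeletal muscle marker covariate, the compared groups alone, unscaled library sizes, 94 leave-one-out fits and, chosen after seeing the data, leaving out libraries with muscle markers over 10000 CPM. Deviations of same-numbered samples correlated at over 0.1 in every pair of the DhhCre table (0.111 to 0.358, 5 pairs) and the Egr2Cre Mitf table (0.211 to 0.482, 3 pairs), so the numbers were taken to pair samples there. The script was tested on simulated data.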

Additional observations from a re-analysis of the deposited data

Results flagged for a closer look

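The difference of Btc between Fig4 -/- and Fig4 +/+ nerves was larger at P12 than at P4, by a log2 difference of 4.69 (SE 0.81, edgeR adjusted p = 0.049 in the fit over both ages). All 3 Fig4 -/- libraries at P12 lay above the other 9 libraries. Over the settings tried the value ran from 4.15 to 5.42. The call was lost in 12 of these 18 settings, with an edgeR adjusted p of up to 0.46. In 64 group and member combinations of 4 to 6 samples, 0 libraries stood apart by Dixon's test, where chance gives about 1 in 20. Groups of 3 libraries were not examined. These are all groups of both Fig4 tables, the Egr2Cre table, the time course and the Egr2Cre Mitf table.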

How the results depend on the processing

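Member results called as reported kept the call in 686 refits and lost it in 90, and uncalled ones gained a call in 40, none of these with a change of direction. Numbers of members called changed as follows, and those not given stayed within 1.5 times. With the muscle covariate they were 1 for injury (4 as reported), 1 for Fig4 at P12 (2), 2 for Mutant day 14 against 3 (5), 0 for Mutant day 7 against 3 (3), 3 for wild type day 14 against 3 (7), 0 for wild type day 14 against 7 (2), 4 for wild type day 7 against 3 (6), and 1 each for Mitf-Ndrg1 against Ndrg1 and Mitf by Ndrg1 (0). Without muscle-rich libraries they were 3 for wild type day 14 against 3, 0 for wild type day 14 against 7, 3 for Mutant day 14 against 7 (2), 1 for Mutant against wild type at day 14, 2 at day 7 and 1 for label by time. That setting keeps 1 library of each label at day 14, assumed to vary like the other groups, so its day 14 counts, those over all genes included, rest on single libraries. With DESeq2 they were 3 for Fig4 at P12 and 1 each for Mitf by Ndrg1 and for Mutant against wild type at days 7 and 14. Without the low-count filter they were 3 for Fig4 at P12 and 1 for wild type day 14 against 7. RLE scaling gave 0 for Fig4 by age (1). Fitted alone, day 14 against 7 gave 0 in wild type and 0 in Mutant nerves. Leaving out a library gave 2 to 3 for Fig4 at P12, 0 to 1 for Fig4 by age, Mitf by Ndrg1, Mitf-Ndrg1 against Ndrg1 and Mutant against wild type at day 7, 0 to 3 for the same labels at day 14, 4 to 7 for wild type day 14 against 3, 0 to 2 for day 14 against 7, 4 to 5 for day 7 against 3, 2 to 3 for Mutant day 14 against 7 and 2 to 4 for Mutant day 7 against 3. The cause of these changes was not tested.

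With a replicate block, 0 members were called for Fig4 by age and 1 for wild type day 14 against 7, and Erbb2 joined for injury (5). In the paired tables the reported fits did not use the pairing, and the block gave no member call. Elsewhere samples share only a number, with correlations of 0.0134 to 0.0997 in the P12 Fig4 table, where each of 3 samples was most like its own number. In the injury table the correlations ran from -0.000809 to 0.203, and 3 of 4 samples were most like their own number. Whether those numbers pair samples is not given in the labels.

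Over all genes, Fig4 at P12 gave 435 calls, against 962 with DESeq2, 1131 without the filter, 112 with the muscle covariate and 146 to 709 without a library. Injury gave 3365, against 310 with the covariate and 1816 to 4058 without a library. Mutant against wild type at day 14 gave 1314, against 2383 with DESeq2, 846 without the filter, 856 with the block, 0 alone, 4535 without muscle-rich libraries (1 library against 1) and 139 to 4959 without a library. Fig4 at P4 gave 1, against 7 with DESeq2, 0 with the block, 13 without muscle-rich libraries and 0 to 1 without a library. Mitf against DhhCre gave 2, against 12 with DESeq2 and 4 with the block. Mitf against Egr2Cre gave 2, against 15 with DESeq2, 4 unfiltered, 0 with the block, 0 without muscle-rich libraries and 0 to 2 without a library. Wild type day 14 against 7 gave 1175, against 2426 with DESeq2, 656 unfiltered, 783 with the block, 462 with the covariate, 70 without muscle-rich libraries, 292 alone and 176 to 1933 without a library. Wild type day 14 against 3 gave 9056, against 4912 with the covariate. Mutant day 14 against 7 gave 2807, against 1805 unfiltered, 1524 with the covariate, 88 alone and 1526 to 5144 without a library. Mutant day 14 against 3 gave 7379, against 2703 with the covariate and 4750 alone. Mutant against wild type at day 7 gave 0, against 241 with DESeq2, 3 unfiltered, 603 without muscle-rich libraries, 2 with RLE and 0 to 11 without a library. Label by time gave 13, against 414 with DESeq2, 1 with the block, 249 with the covariate, 1372 without muscle-rich libraries and 1 to 146 without a library. Mitf against control gave 1, against 14 with DESeq2, 3 alone and 1 to 3 without a library. Mitf-Ndrg1 against Ndrg1 gave 234, against 768 with DESeq2, 118 with the covariate, 84 without muscle-rich libraries, 31 alone and 58 to 545 without a library. Mitf by Ndrg1 gave 62, against 414 with DESeq2, 96 with the covariate, 24 without muscle-rich libraries and 20 to 252 without a library. Fig4 by age gave 23, against 151 with DESeq2, 2 with the block, 53 with the covariate, 47 without muscle-rich libraries, 13 with RLE and 5 to 26 without a library. Egr2Cre Mitf against Mitf gave 0, against 7 with DESeq2. Mitf by Ndrg1 gave 46 higher and 16 lower, against 47 and 30 with RLE scaling. Unscaled library sizes moved 20 of 216 levels by more than 1 SD. Over all levels of at least 1 CPM, the unscaled level was 0.817 to 1.14 times the scaled one. Leaving out muscle-rich libraries could not be run for the Egr2Cre Mitf table. Areg, Ereg and Erbb4 after injury are limited by depth.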

Other observations

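Of 5 other ErbB ligands (Egf, Epgn, Nrg2, Nrg3 and Nrg4), 2 were tested in the time course and in the table with Ndrg1. Egf was higher at day 14 than at day 3, by 5.22 in Mutant nerves (SE 1.33, edgeR adjusted p = 0.0051) and by 3.40 in wild type nerves (SE 1.10, edgeR adjusted p = 0.016), the days that also differ in skeletal muscle markers, whose part was not tested. Nrg4 was higher under Mitf-Ndrg1 than in control nerves by 1.86 (SE 0.60, edgeR adjusted p = 0.011) and than under Mitf by 2.02 (SE 0.61, edgeR adjusted p = 0.0062), while its difference between Ndrg1 and control was -0.02 (SE 0.64, edgeR adjusted p = 0.98). Between Mitf-Ndrg1 and Ndrg1 the difference was 1.87 (SE 0.64, edgeR adjusted p = 0.13). Adipocyte markers summed to 38.2 to 480 CPM under Mitf-Ndrg1, with a median of 361 CPM. Their median was 62.3 CPM under Ndrg1, 35.6 CPM under Mitf and 36.9 CPM in control nerves. Their part in the differences of Nrg4 was not tested.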
